A study of Homo sapiens with 12 samples.

Results

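The genes described here are 6 human genes of the liver X receptor (LXR) system and of cholesterol efflux: the receptors NR1H2 (LXRβ) and NR1H3 (LXRα), the transporters ABCA1 and ABCG1, the ubiquitin ligase MYLIP (also called IDOL) and the acyltransferase LPCAT3. They were taken by symbol from 26485 genes listed, and 5 of the 6 passed the minimum of 10 normalized reads, averaged over all libraries, that 11743 genes passed for testing. The exception was ABCA1. The RNA came from HT-29, an established line of human colon adenocarcinoma. PolyA RNA of 12 libraries, 3 per group, was sequenced after 8 h of treatment. The TSZ+Nec-1s cells received TNFα at 10 ng/ml together with SM-164 at 50 nM, zVAD at 20 μM and Nec-1s at 10 μM, and the TSZ cells the same without Nec-1s. The TNFα cells received TNFα at 10 ng/ml alone and the DMSO cells the vehicle. SM-164 is a Smac mimetic, zVAD inhibits caspases, and Nec-1s inhibits the kinase RIPK1, on which necroptosis induced by TSZ depends. All groups are of 1 cell line, and no source used here states whether replicate libraries were grown as separate cultures. The p-values measure the spread between these libraries, which may be technical.

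LXRs are nuclear receptors that bind DNA as partners of the retinoid X receptors and are switched on by oxysterols, the oxidized forms of cholesterol. When sterol is plentiful they turn on genes that move cholesterol out of the cell, that limit its uptake and that make and remodel fatty acids. In the intestine they are known for driving cholesterol efflux and for changing the phospholipids of the absorptive cells. ABCA1 passes cholesterol and phospholipid to lipid-poor apolipoprotein A-I, ABCG1 moves sterol towards mature lipoproteins, MYLIP marks lipoprotein receptors for degradation, and LPCAT3 puts polyunsaturated chains into phospholipids. All 4 are known as LXR target genes.

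Estimated library totals ranged from 8791398 to 12734104 reads. Values are normalized reads, that is reads per gene divided by the size factor of the library, and the libraries of a group are lettered a, b and c. In DMSO library b, TSZ library c and TNFα library c, the deviation of genes from their group mean fell with transcript GC content. Spearman's rho was -0.79, -0.74 and -0.59 over 11540 genes, against -0.14 to 0.77 in the other 9 libraries. Deviations within a group offset each other, so other libraries rose with GC content, such as DMSO library a (0.77) and TSZ library a (0.58). The 3 libraries with a fall are those said below to follow GC content. Counts of the gene lists that changed without these 3 libraries, and calls of the 6 genes that did, are therefore given both ways. The epithelial keratin KRT8 averaged 78159, 106550, 82108 and 77517 normalized reads in TSZ+Nec-1s, TSZ, TNFα and DMSO cells, and KRT18, EPCAM, CDH1 and LGALS4 were also abundant, whereas CDH17, CDX2 and GPA33 were at or near 0. Of the leukocyte markers, PTPRC, CD163, CD3E, MS4A1 and TYROBP were at 0 in every library. The summed level of the 10 leukocyte markers was 214 to 269 normalized reads in TSZ+Nec-1s and 103 to 155 in TSZ libraries. It was 169 to 209 in TNFα and 87.2 to 95.4 in DMSO libraries, nearly all of it CD14 and ITGAM. CD14 averaged 30.6, 12.6, 49.4 and 80.8 in TSZ+Nec-1s, TSZ, TNFα and DMSO cells, and ITGAM 218, 117, 134 and 9.33. Against DMSO, CD14 was thus lower and ITGAM higher in every treated group. The 10 fibroblast and endothelial markers, of which CDH5 and KDR were at 0, summed to 45.1 to 60.8 in TSZ+Nec-1s, 213 to 496 in TSZ, 47.2 to 63.1 in TNFα and 56.7 to 202 in DMSO libraries. The part of these markers in the results below was not tested.

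In hg38 coordinates of the GENCODE v44 annotation, NR1H2 lies at chr19:50329653-50383388 and NR1H3 at chr11:47248300-47269033, both on the plus strand. ABCA1 lies at chr9:104781006-104928155 on the minus strand and ABCG1 at chr21:42199689-42297244 on the plus strand. MYLIP lies at chr6:16129086-16148248 on the plus strand and LPCAT3 at chr12:6976185-7018477 on the minus strand. The authors counted reads without regard to strand, and 3 of the genes share exon bases with a gene on the opposite strand. In the intersection-strict mode they used, a read wholly within exon bases of both genes is counted for neither. Reads from the shared bases may thus be missing from the counts of these 3 genes. The shared exon bases are 1182 for NR1H2 with NAPSA, 189 for NR1H3 with ACP2 and 3096 for LPCAT3 with EMG1, which is 22.1%, 4.17% and 66% of the annotated exon bases of NR1H2, NR1H3 and LPCAT3. NAPSA averaged no more than 2.08 normalized reads in any group.

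RefSeq promoter windows of GRCh38.p14, from 250 bases before to 50 after the start of a gene, were given for 5 of the 6 genes. Windows of ABCA1 and NR1H2 are shown because the ABCA1 window carries the kind of element through which LXRs act, and because NR1H2 was the member with the largest change in TSZ cells among the 5 tested. Capitals in the ABCA1 window (chr9:104928106-104928405, minus strand) mark a direct repeat of LXR type, GGTTA and GGTCA with 5 bases between them, which reads ggttactatcggtca on the opposite strand. Capitals in the NR1H2 window (chr19:50376207-50376506, plus strand) mark CCGGAAG, the core bound by ETS factors, on either strand.
ABCA1: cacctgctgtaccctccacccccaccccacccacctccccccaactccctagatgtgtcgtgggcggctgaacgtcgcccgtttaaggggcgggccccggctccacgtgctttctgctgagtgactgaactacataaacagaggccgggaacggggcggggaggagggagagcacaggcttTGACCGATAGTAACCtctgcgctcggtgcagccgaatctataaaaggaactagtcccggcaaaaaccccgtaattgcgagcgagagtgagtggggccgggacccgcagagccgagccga
NR1H2: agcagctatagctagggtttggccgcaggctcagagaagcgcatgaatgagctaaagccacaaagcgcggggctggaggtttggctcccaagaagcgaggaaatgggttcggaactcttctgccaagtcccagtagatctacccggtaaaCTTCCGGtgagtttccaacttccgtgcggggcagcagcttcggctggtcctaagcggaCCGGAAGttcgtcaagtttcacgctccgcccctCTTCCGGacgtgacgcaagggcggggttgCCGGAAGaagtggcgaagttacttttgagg
The LXR-type letters began 69 bases before the start of ABCA1, were found in no other window of the 5 genes that had one, and occur in 18 of 35116 promoter windows (0.0513%). The ideal repeat, AGGTCA given again after 4 bases, was found in 7 windows (0.0199%) and in none of those 5 genes. CCGGAAG occurred 4 times in the NR1H2 window and once in 1 of the 4 NR1H3 windows, against at least 1 occurrence in 10.3% and at least 4 in 0.0313% of all windows. The sterol regulatory letters TCACNCCAC (1.13% of windows) and the NF-κB-type letters, GGG and TTTCC with 2 bases between them (1.91%), were in no window of the 5 genes, and CACGTG (7.26%) was in that of ABCA1. These letters were chosen after the windows had been read, both strands were searched, and a match is a description of the letters, not of binding.

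The receptors moved in opposite directions in TSZ cells. NR1H2, the LXR that most tissues express, had 985, 1090 and 823 normalized reads in the TSZ libraries a, b and c, against 491, 326 and 466 in the DMSO libraries. Every TSZ library lay above every DMSO library, and DMSO library b, one of the 3 that followed GC content, was the lowest. NR1H2 averaged 966 ± 135 in TSZ and 427 ± 88.8 in DMSO cells (SD, n = 3 each) and rose 2.28-fold, a log2 change of 1.19 (SE 0.15, adjusted p = 2.4e-05 by limma with Benjamini-Hochberg adjustment over all genes tested). In TSZ over DMSO, an adjusted p under 0.05 was reached by 26.0% of all genes tested with a higher level and by 24.2% with a lower one, so a call in this comparison is common.

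With Nec-1s added to TSZ, NR1H2 stood at 532, 515 and 516 normalized reads, which is 521 ± 9.60. All 3 values lay under the lowest TSZ value, and limma gave a log2 change of -0.88 (SE 0.14, adjusted p = 0.00033) for TSZ+Nec-1s over TSZ, where 19.8% of genes were called higher and 22.7% lower. The TNFα libraries had 521, 552 and 491 normalized reads, which overlapped those of TSZ+Nec-1s. NR1H2 was higher in TSZ than in TNFα cells by 0.88 on the log2 scale (SE 0.14, adjusted p = 0.00029), a comparison with 22.8% of genes called higher and 21.6% lower.
Between TSZ+Nec-1s and TNFα the log2 difference of NR1H2 was -0.00 (95% interval -0.32 to 0.32, adjusted p = 1 by limma). TSZ+Nec-1s and TNFα libraries all lay above the DMSO libraries. For TNFα the margin was narrow, with 491.5 in TNFα library c and 490.6 in DMSO library a. Neither difference over DMSO was called, with 0.31 for TSZ+Nec-1s over DMSO (adjusted p = 0.22 by limma) and 0.31 for TNFα over DMSO (adjusted p = 0.38). Both rested in part on DMSO library b: without it they were 0.13 (adjusted p = 0.45) and 0.13 (adjusted p = 0.68), and without the 3 libraries that followed GC content 0.13 (adjusted p = 0.25) and 0.17 (adjusted p = 0.31). Once GC trends were removed, TSZ+Nec-1s over DMSO was called (0.39, adjusted p = 0.0011) and TNFα over DMSO was not (0.22, adjusted p = 0.053). In bulk RNA, fewer cells that express a gene and less of its RNA in each cell cannot be told apart.

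NR1H3, the LXR that is known to be more restricted to liver, intestine, fat and macrophages, was lower in TSZ than in DMSO or TNFα cells. The TSZ libraries had 230, 293 and 224 normalized reads, against 452, 310 and 381 in the DMSO libraries. The highest TSZ library, b, stayed below the lowest DMSO library, also b, but by a narrow margin. NR1H3 averaged 249 ± 38.5 in TSZ and 381 ± 71.0 in DMSO cells (SD, n = 3 each) and fell by 0.61 on the log2 scale (SE 0.17, adjusted p = 0.0099 by limma). The TNFα libraries had 401, 479 and 352 normalized reads, and NR1H3 was lower in TSZ than in TNFα cells by a log2 change of -0.72 (SE 0.17, adjusted p = 0.0038).
With TSZ+Nec-1s, NR1H3 had 280, 323 and 289 normalized reads, between the means of TSZ and DMSO cells, and these values overlapped those of the TSZ and of the DMSO libraries. Neither difference was called (0.26 over TSZ, adjusted p = 0.24, and -0.34 over DMSO, adjusted p = 0.2, by limma). The difference over TSZ was called with the GC trend removed (0.33, adjusted p = 0.022) and with libraries scaled to total reads (0.60, adjusted p = 0.0076). Without the 3 libraries that followed GC content, the difference over DMSO was called (-0.47, adjusted p = 0.0013), and so was that over TNFα, at -0.56 (adjusted p = 0.00035), against -0.46 (adjusted p = 0.21) with all libraries.
ACP2, which shares exon bases with NR1H3, was also lower in TSZ than in DMSO cells (-0.45, SE 0.13, adjusted p = 0.011 by limma), and was higher in TSZ+Nec-1s than in TSZ cells (0.56, adjusted p = 0.0039). How many reads the overlap with ACP2 took from the NR1H3 counts was not tested.

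**Figure D1:**
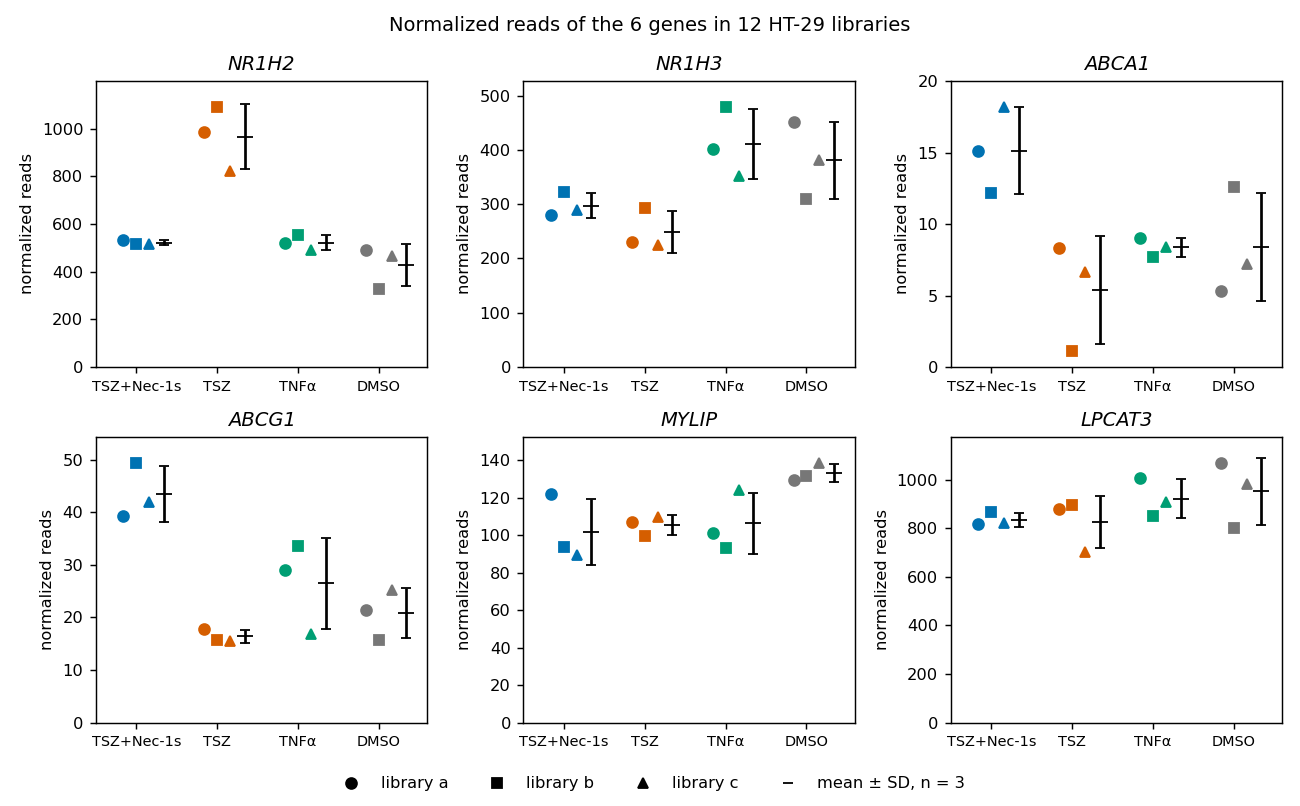
Normalized reads (vertical axes, from 0) of the 6 genes in the TSZ+Nec-1s, TSZ, TNFα and DMSO groups, with 1 symbol per library and the mean ± SD of 3 libraries beside them. NR1H2 stands at 823 to 1090 in TSZ against 326 to 491 in DMSO libraries, NR1H3 has its lowest mean in TSZ cells, and ABCG1 is highest in TSZ+Nec-1s libraries at 39.2 to 49.5.

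The ratio of NR1H2 to NR1H3 reads within a library does not depend on how libraries are scaled to each other. It was 1.90, 1.59 and 1.78 in the TSZ+Nec-1s libraries, 4.29, 3.72 and 3.67 in the TSZ libraries, 1.30, 1.15 and 1.40 in the TNFα libraries, and 1.09, 1.05 and 1.22 in the DMSO libraries. The 3 TSZ libraries lay above all others, the 3 TSZ+Nec-1s libraries lay above those of TNFα and DMSO, and TNFα overlapped DMSO. Transcript GC content was 61.0% for NR1H2 and 55.4% for NR1H3, and its part in the ratio was not tested. Of the 3 libraries that followed GC content, DMSO library b and TSZ library c had the lowest ratio of their group. TNFα library c had the highest of its group. The mean ratio was 3.89 ± 0.34 in TSZ and 1.12 ± 0.09 in DMSO cells (SD, n = 3 each), which is 3.48 times as high. An exact permutation test of 3 libraries against 3 cannot go below p = 0.1, and none was run on the ratio.
Per kilobase of annotated exon, the level of NR1H2 was 97.6, 181, 97.7 and 80.0 normalized reads in TSZ+Nec-1s, TSZ, TNFα and DMSO cells, and that of NR1H3 was 65.6, 54.9, 90.6 and 84.0. On this scale the receptors were close to each other in TNFα and DMSO cells. NR1H2 was the more abundant one in TSZ cells and, by a smaller margin, in TSZ+Nec-1s cells. The exon lengths, 5341 bases for NR1H2 and 4534 for NR1H3, join the exons of every annotated transcript, so levels per kilobase are approximate. These lengths include bases shared with NAPSA (22.1% for NR1H2) and ACP2 (4.17% for NR1H3), from which reads may be missing.

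**Figure D2:**
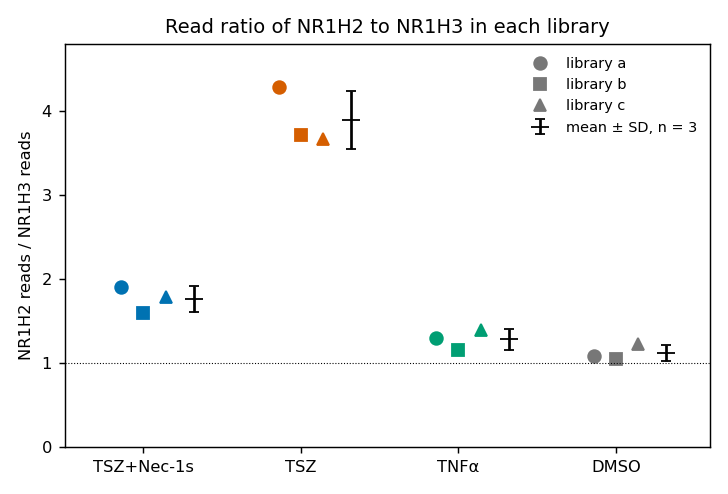
Reads of NR1H2 divided by reads of NR1H3 (vertical axis, a ratio) in each library of the 4 groups, with the mean ± SD of 3 libraries and a dotted line at 1. The TSZ libraries sit between 3.67 and 4.29, above the TSZ+Nec-1s libraries at 1.59 to 1.90 and the DMSO libraries at 1.05 to 1.22.

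Of the retinoid X receptors, with which LXRs bind DNA, RXRA and RXRB were tested and RXRG had no reads in any library. RXRA had 1256, 1293 and 957 normalized reads in TSZ libraries, against 1855, 1442 and 1849 in DMSO libraries, and the groups did not overlap. It fell by 0.56 on the log2 scale in TSZ over DMSO (SE 0.13, adjusted p = 0.0031 by limma) and was lower in TSZ+Nec-1s than in DMSO cells as well (-0.63, adjusted p = 0.0055). RXRB was not called in either comparison. Without the 3 libraries that followed GC content, both were called lower in TSZ+Nec-1s over TSZ, where neither was called with all libraries, and with total-read scaling both were called lower in TSZ over DMSO.

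ABCG1 was the transporter gene that differed most clearly between groups, and it was highest in TSZ+Nec-1s cells. The TSZ+Nec-1s libraries had 39, 57 and 53 reads, which are 39.2, 49.5 and 41.9 normalized reads, against 17.9, 15.8 and 15.5 normalized reads in the TSZ libraries, from 15, 14 and 14 reads. Every TSZ+Nec-1s library was above every TSZ library, and the TSZ libraries were close to each other. ABCG1 averaged 43.5 ± 5.32 in TSZ+Nec-1s and 16.4 ± 1.27 in TSZ cells (SD, n = 3 each) and was 2.60-fold higher, a log2 change of 1.38 (SE 0.29, adjusted p = 0.0023 by limma).
The DMSO libraries had 21.4, 15.8 and 25.2 normalized reads, all below those of TSZ+Nec-1s. ABCG1 was 2.08-fold higher in TSZ+Nec-1s than in DMSO cells, a log2 change of 1.06 (SE 0.27, adjusted p = 0.021), a comparison in which 7.14% of genes were called higher and 5.74% lower. This call was lost when TSZ+Nec-1s library b, TSZ+Nec-1s library c or DMSO library a was left out (adjusted p = 0.08, 0.057 and 0.056). Over TNFα, with 29.0, 33.7 and 16.8 normalized reads, the log2 difference was 0.77 (95% interval 0.21 to 1.32) and was not called (adjusted p = 0.19), although the groups did not overlap. It was 0.47 without TNFα library c (adjusted p = 0.3) and without the 3 libraries that followed GC content (adjusted p = 0.16), and ranged up to 0.97 when another single library was left out. It was called with the GC trend removed (0.91, adjusted p = 0.019) and in a fit of the 2 groups alone (0.77, adjusted p = 0.044). TSZ against DMSO gave -0.32 (95% interval -1.02 to 0.39, adjusted p = 0.44), and their libraries overlapped. TSZ against TNFα gave -0.61 (adjusted p = 0.13), which was called without the 3 libraries that followed GC content (-0.87, adjusted p = 0.045) or without TNFα library c alone (-0.91, adjusted p = 0.024).

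ABCA1 rested on few reads. Libraries a, b and c had 15, 14 and 23 reads with TSZ+Nec-1s, 7, 1 and 6 with TSZ, 9, 8 and 9 with TNFα, and 5, 12 and 8 with DMSO. After scaling these were 15.1, 12.2 and 18.2 normalized reads in TSZ+Nec-1s, against 8.33, 1.13 and 6.66 in TSZ libraries, which did not overlap. The authors' means of 15.1 and 5.37 stand in a ratio of 2.82. With the minimum on reads lifted, limma gave a log2 change of 1.70 for TSZ+Nec-1s over TSZ (SE 0.51, adjusted p = 0.024). TSZ library b held a single ABCA1 read, and leaving out 1 library at a time the log2 ratio of group means ranged from 1.02 to 1.96.
In the other 5 comparisons ABCA1 was not called without the minimum. The ratio of the authors' means was 1.81 for TSZ+Nec-1s over TNFα (adjusted p = 0.45 by limma) and 1.81 for TSZ+Nec-1s over DMSO (adjusted p = 0.33). It was 0.64 for TSZ over DMSO (adjusted p = 0.3), where 7, 1 and 6 reads stand against 5, 12 and 8, and the 95% interval of its log2 change ran from -2.02 to 0.40. Per kilobase of exon the level of ABCA1 was 1.34, 0.47, 0.74 and 0.74 normalized reads in TSZ+Nec-1s, TSZ, TNFα and DMSO cells, under that of ABCG1, which was 7.11, 2.68, 4.33 and 3.40. Both transporters thus had their highest mean in TSZ+Nec-1s cells and their lowest in TSZ cells.

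MYLIP was tested and called in 0 of 6 comparisons by limma and by limma-trend, and reached an unadjusted p under 0.05 in 1 of them. It had 122, 93.8 and 89.4 normalized reads in TSZ+Nec-1s libraries, 107, 99.3 and 110 in TSZ libraries, 101, 93.3 and 124 in TNFα libraries, and 129, 131 and 139 in DMSO libraries. The 3 treated groups overlapped each other, and the DMSO libraries lay above all of them. The log2 differences over DMSO were -0.41 for TSZ+Nec-1s (95% interval -0.75 to -0.08, adjusted p = 0.1 by limma), -0.34 for TSZ (-0.68 to 0.01, adjusted p = 0.096) and -0.33 for TNFα (-0.67 to 0.00, adjusted p = 0.33). For TSZ+Nec-1s over TSZ the difference was -0.08 (95% interval -0.43 to 0.27, adjusted p = 0.73), and its sign turned when libraries were scaled to their total reads (0.26) or by the upper quartile (0.04). The same scalings called MYLIP lower in TSZ than in DMSO cells, at -0.75 (adjusted p = 0.0016) with total reads and -0.51 (adjusted p = 0.017) with the upper quartile, where the median of all genes was -0.43 and -0.19. In TSZ+Nec-1s over DMSO total-read scaling gave -0.49 (adjusted p = 0.0499). Without the 3 libraries that followed GC content, TSZ+Nec-1s over DMSO was called for MYLIP (-0.43, adjusted p = 0.027).

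LPCAT3 was the steadiest of the 5 tested genes by the size of its largest log2 difference. It had 817, 867 and 821 normalized reads in TSZ+Nec-1s libraries, 881, 897 and 703 in TSZ libraries, 1007, 850 and 910 in TNFα libraries, and 1071, 801 and 984 in DMSO libraries. All 4 groups overlapped. LPCAT3 was called in 0 of 6 comparisons by limma, also with limma-trend, and 0 had an unadjusted p under 0.05. For TSZ over DMSO the log2 difference was -0.20 (95% interval -0.48 to 0.08, adjusted p = 0.21), but with libraries scaled to total reads it was -0.61 (adjusted p = 0.00057), and by the upper quartile it was -0.38 (adjusted p = 0.027). Scaling to total reads moved the median of all genes to -0.43 in this comparison, to -0.33 in TSZ over TNFα and to 0.35 in TSZ+Nec-1s over TSZ, from values within 0.02 of 0. Without the 3 libraries that followed GC content, LPCAT3 was called lower in TSZ+Nec-1s than in DMSO cells (-0.30, adjusted p = 0.003) and in TSZ than in DMSO cells (-0.20, adjusted p = 0.0497). EMG1, which covers most exon bases of LPCAT3 from the other strand, had 773 normalized reads in TSZ and 706 in DMSO cells on average, and was not called (adjusted p = 0.42).

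**Figure D3:**
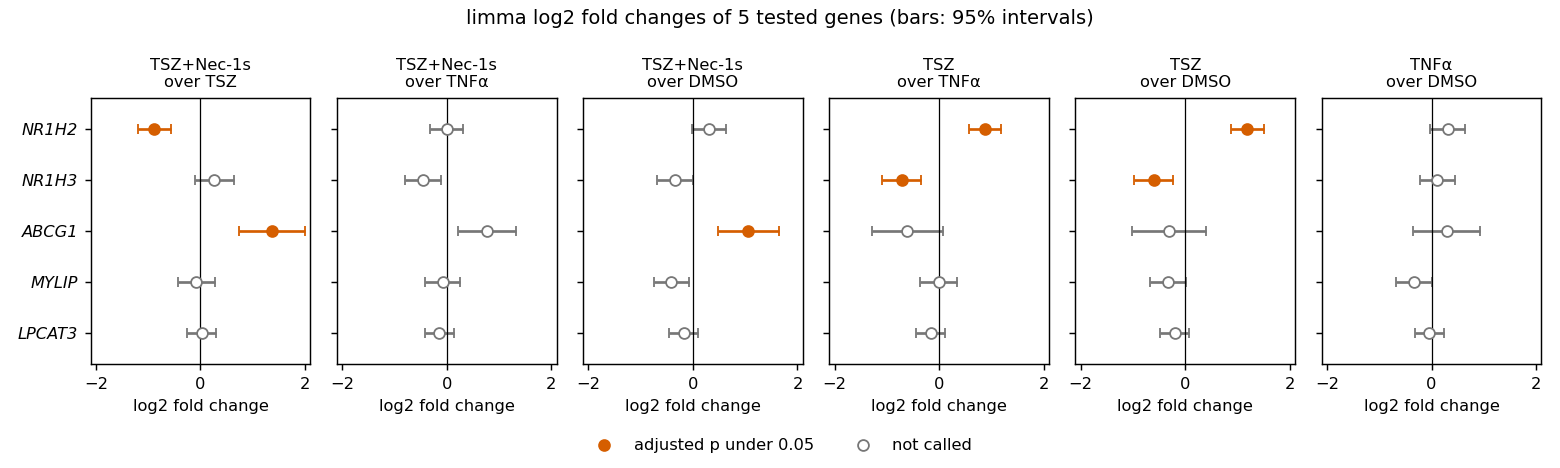
Log2 fold changes from limma (horizontal axes) of the 5 tested genes in the 6 comparisons, with bars for 95% intervals and filled points where the adjusted p was under 0.05. NR1H2 is called at 1.19 and NR1H3 at -0.61 in TSZ over DMSO, ABCG1 at 1.38 in TSZ+Nec-1s over TSZ, and no gene is called in TNFα over DMSO or in TSZ+Nec-1s over TNFα.

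Counted together, 1 of the 5 tested genes was called higher and 1 lower in TSZ over DMSO, in TSZ over TNFα and in TSZ+Nec-1s over TSZ. Of all genes tested, 26.0% were called higher and 24.2% lower in TSZ over DMSO. These shares were 22.8% and 21.6% in TSZ over TNFα, and 19.8% and 22.7% in TSZ+Nec-1s over TSZ. In TSZ+Nec-1s over DMSO, ABCG1 was called higher, beside 7.14% of all genes called higher and 5.74% lower. By limma and by limma-trend, 0 were called in TNFα over DMSO, with 0 at an unadjusted p under 0.05, where 3.13% of all genes were called higher and 1.08% lower. In TSZ+Nec-1s over TNFα 0 were called, with 2 at an unadjusted p under 0.05 (ABCG1 and NR1H3), where 1.09% of all genes were called higher and 0.255% lower. The median log2 change of the 5 genes in TSZ over DMSO was -0.32, beside -0.02 over all genes tested. This median is the change of ABCG1, which was not called (95% interval -1.02 to 0.39). In TSZ+Nec-1s over TSZ the median was 0.02 for the 5 genes and 0.02 over all genes. The 5 genes are too few for the share of them called to be read against that of all genes.
The comparisons share their libraries. Over the 12 libraries, the log2 levels of NR1H2 and NR1H3 had a Pearson r of -0.52, those of NR1H3 and LPCAT3 0.68, those of ABCG1 and NR1H2 -0.31, and those of ABCG1 and NR1H3 0.26. These points share treatment groups and GC trends, so the values are descriptions.

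The wider pathway was described with 7 lists of 71 genes, of which 50 were tested. APOC1, SOAT1 and STARD5 passed the minimum only through 1 group, since their other 3 groups averaged 9.67, 8.06 and 9.08 normalized reads, and they are left out of the list counts. The counts stand against the shares of all genes tested. In TSZ over DMSO these were 26.0% called higher and 24.2% lower, or 14.2% and 48.4% with libraries scaled to total reads, or 32.6% and 28.7% without the 3 libraries that followed GC content. In TSZ+Nec-1s over TSZ they were 19.8% and 22.7%, or 42.1% and 11.8% with total-read scaling, or 31.0% and 32.0% without the 3 libraries.
Of 14 other known direct LXR targets, 5 were counted. In TSZ over DMSO 3 were called higher and 0 lower, against 26.0% and 24.2% of all genes, and in TSZ+Nec-1s over TSZ 0 were called higher and 3 lower, against 19.8% and 22.7%. The median log2 changes of the 5 were 0.48 and -0.49, beside -0.02 and 0.02 over all genes. With libraries scaled to total reads, 1 of the 5 was called higher in TSZ over DMSO and 1 lower in TSZ+Nec-1s over TSZ, and without the 3 libraries 3 were called higher and 4 lower. APOC2, CETP, LPL and CD5L had no reads.
FASN, the fatty acid synthase, was higher in TSZ than in DMSO cells by 1.06 (adjusted p = 1.2e-05 by limma) and lower in TSZ+Nec-1s than in TSZ cells (-1.30, adjusted p = 2.9e-06). APOC1, an apolipoprotein that passed the minimum only through its TSZ libraries, had 17 to 20 reads per TSZ library against 3 to 14 per DMSO library, which is given as a description. SCD, the stearoyl-CoA desaturase, and SREBF1, which encodes the lipogenic factor SREBP1, rose by 0.48 (adjusted p = 0.00033) and 0.39 (adjusted p = 0.03), but with libraries scaled to total reads their changes were 0.07 (adjusted p = 0.46) and -0.02 (adjusted p = 0.9). FASN, SCD and SREBF1 are known to answer to SREBP factors as well as to LXRs.

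LXRs are held silent or made active by corepressors and coactivators. Of 12 tested of 13 such genes, 3 were called higher and 3 lower in TSZ over DMSO, which is close to the 26.0% and 24.2% of all genes. In TSZ+Nec-1s over TSZ 0 were called higher and 5 lower, against 19.8% and 22.7%. With total-read scaling, 2 were called higher and 7 lower in TSZ over DMSO, and 6 higher and 2 lower in TSZ+Nec-1s over TSZ. Without the 3 libraries that followed GC content, these counts were 5 and 2, and 2 and 5. SIRT1, a deacetylase known to act on LXRs, had 824, 807 and 1451 normalized reads in TSZ libraries, against 68.4, 247 and 133 in DMSO libraries. It rose by 2.91 (SE 0.35, adjusted p = 1.8e-05 by limma), and its highest values in the TSZ, TNFα and DMSO groups were in the 3 libraries that followed GC content, without which the change was 3.05 (adjusted p = 3.3e-14). The coactivator genes NCOA3 and EP300 rose by 0.97 (adjusted p = 0.00058) and 0.37 (adjusted p = 0.022), while NCOA1 and NCOA2 fell by 0.81 (adjusted p = 0.0032) and 0.69 (adjusted p = 0.027). The corepressor gene NCOR1 fell by 0.34 (adjusted p = 0.015). EP300 was not called with libraries scaled to total reads (-0.04, adjusted p = 0.78), and NCOA2 was not called without the 3 libraries (-0.46, adjusted p = 0.068).

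Most enzymes that make or clear oxysterols had no or few reads. CH25H, CYP7A1, CYP7B1, CYP46A1 and SULT1E1 had none. CYP27A1, which makes 27-hydroxycholesterol, had too few to be tested. It had 5 to 14 reads per TSZ+Nec-1s library, 1 to 4 per TSZ library, 2 to 6 per TNFα library and at most 1 per DMSO library. A count of 0 in a single library limits its level only to about 3 reads, and 0 in every library of a group limits it further. Of the 2 tested, SULT2B1, which sulphates oxysterols and so takes them away from LXRs, rose by 0.75 in TSZ over DMSO (adjusted p = 0.0026 by limma) and was lower in TSZ+Nec-1s than in TSZ cells (-0.49, adjusted p = 0.03), neither of which was called with total-read scaling (adjusted p = 0.074 and 0.39). HSD3B7, an enzyme of oxysterol clearance into bile acids, fell by 0.75 in TSZ over DMSO (adjusted p = 0.019).

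Among 14 counted of 20 genes of cholesterol efflux, storage and movement, 7 were called higher and 1 lower in TSZ over DMSO, against 26.0% and 24.2% of all genes, and 2 higher and 8 lower in TSZ+Nec-1s over TSZ, against 19.8% and 22.7%. With total-read scaling 6 were higher and 5 lower in TSZ over DMSO, against 14.2% and 48.4% of all genes, and 4 higher and 5 lower in TSZ+Nec-1s over TSZ, against 42.1% and 11.8%. Without the 3 libraries that followed GC content, 7 were higher and 1 lower in TSZ over DMSO, and 2 higher and 10 lower in TSZ+Nec-1s over TSZ. NPC1, which carries cholesterol out of lysosomes, had 3129, 3220 and 2821 normalized reads in TSZ libraries, against 445, 461 and 489 in DMSO libraries. NPC1 rose by 2.71 (SE 0.10, adjusted p = 1.9e-10 by limma) and was lower in TSZ+Nec-1s than in TSZ cells (-2.14, adjusted p = 2e-09). GRAMD1B, which moves cholesterol from the plasma membrane to the endoplasmic reticulum, went the other way, with 394, 509 and 376 normalized reads in TSZ libraries against 1587, 1485 and 1603 in DMSO libraries. GRAMD1B fell by 1.88 in TSZ over DMSO (adjusted p = 2.5e-08) and was higher in TSZ+Nec-1s than in TSZ cells (1.16, adjusted p = 4.8e-06).
The caveolar coat gene CAV1 rose by 2.03 in TSZ over DMSO (adjusted p = 2.5e-06 by limma). NCEH1, a cholesteryl ester hydrolase, rose by 1.64 (adjusted p = 1.5e-07) and the sterol carrier STARD4 by 1.58 (adjusted p = 0.002). CAV1 (1.02, adjusted p = 0.0049), NCEH1 (1.23, adjusted p = 1.4e-05) and NPC1 (0.57, adjusted p = 0.0026) were also higher in TSZ+Nec-1s than in DMSO cells. In TNFα over DMSO, NCEH1 (0.60, adjusted p = 0.011) and NPC1 (0.42, adjusted p = 0.041) were called higher. STARD5, a related carrier that passed the minimum only through its DMSO libraries, averaged 7.29 normalized reads in TSZ and 18.4 in DMSO cells, given as a description.

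Of 6 genes for substrates of MYLIP and for the E2 enzymes it works with, 4 were called higher and 1 lower in TSZ over DMSO, against 26.0% and 24.2% of all genes, and 1 higher and 2 lower in TSZ+Nec-1s over TSZ, against 19.8% and 22.7%. These counts were 0 and 2, and 1 and 0, with total-read scaling, under which MYLIP itself was called lower in TSZ over DMSO, and 5 and 1, and 1 and 2, without the 3 libraries that followed GC content. Whether MYLIP differed in its change from these genes was not tested. VLDLR, a lipoprotein receptor, had 52.4, 76.7 and 58.8 normalized reads in TSZ libraries, against 29.9, 39.9 and 36.0 in DMSO libraries. The groups did not overlap, and VLDLR rose by 0.81 (adjusted p = 0.0057 by limma) and was lower in TSZ+Nec-1s than in TSZ cells (-0.53, adjusted p = 0.042). The latter call was lost with total-read scaling (-0.20, adjusted p = 0.41) and with upper quartile scaling (-0.41, adjusted p = 0.1). LRP8, a lipoprotein receptor of the same family, was lower in TSZ+Nec-1s than in TSZ cells (-0.31, adjusted p = 0.013), but not with total-read scaling (0.03, adjusted p = 0.81).
The E2 genes UBE2D1, UBE2D3 and UBE2D2 rose by 1.46 (adjusted p = 0.02 by limma), 0.99 (adjusted p = 0.0059) and 0.75 (adjusted p = 0.0037) in TSZ over DMSO, and UBE2D4 fell by 0.76 (adjusted p = 0.0037). With total-read scaling, VLDLR, UBE2D1, UBE2D3 and UBE2D2 were not called (adjusted p = 0.11, 0.077, 0.083 and 0.14). UBE2D1 had 202 normalized reads in DMSO library b, against 49.2 and 46.8 in the other DMSO libraries, and without the 3 libraries its change was 1.70 (adjusted p = 8.8e-07).

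Of 7 other lysophospholipid acyltransferases, 6 were tested. In TSZ over DMSO 0 were called higher and 3 lower, against 26.0% and 24.2% of all genes, or 3 higher and 3 lower without the 3 libraries that followed GC content. LPCAT1 had 907, 907 and 773 normalized reads in TSZ libraries, against 1518, 1328 and 1533 in DMSO libraries, and fell by 0.76 (SE 0.10, adjusted p = 4e-05 by limma). LPCAT4 fell by 0.75 (adjusted p = 0.00077) and MBOAT1 by 0.78 (adjusted p = 0.016). LPCAT1 and LPCAT4 were also lower in TSZ+Nec-1s than in DMSO cells (-0.76, adjusted p = 0.00019, and -0.96, adjusted p = 0.00052), and MBOAT1 was higher in TSZ+Nec-1s than in TSZ cells (0.91, adjusted p = 0.0083). LPCAT3, which is known as an LXR target, was not called, and it was not tested whether its change differed from those of the other acyltransferase genes.

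**Figure D4:**
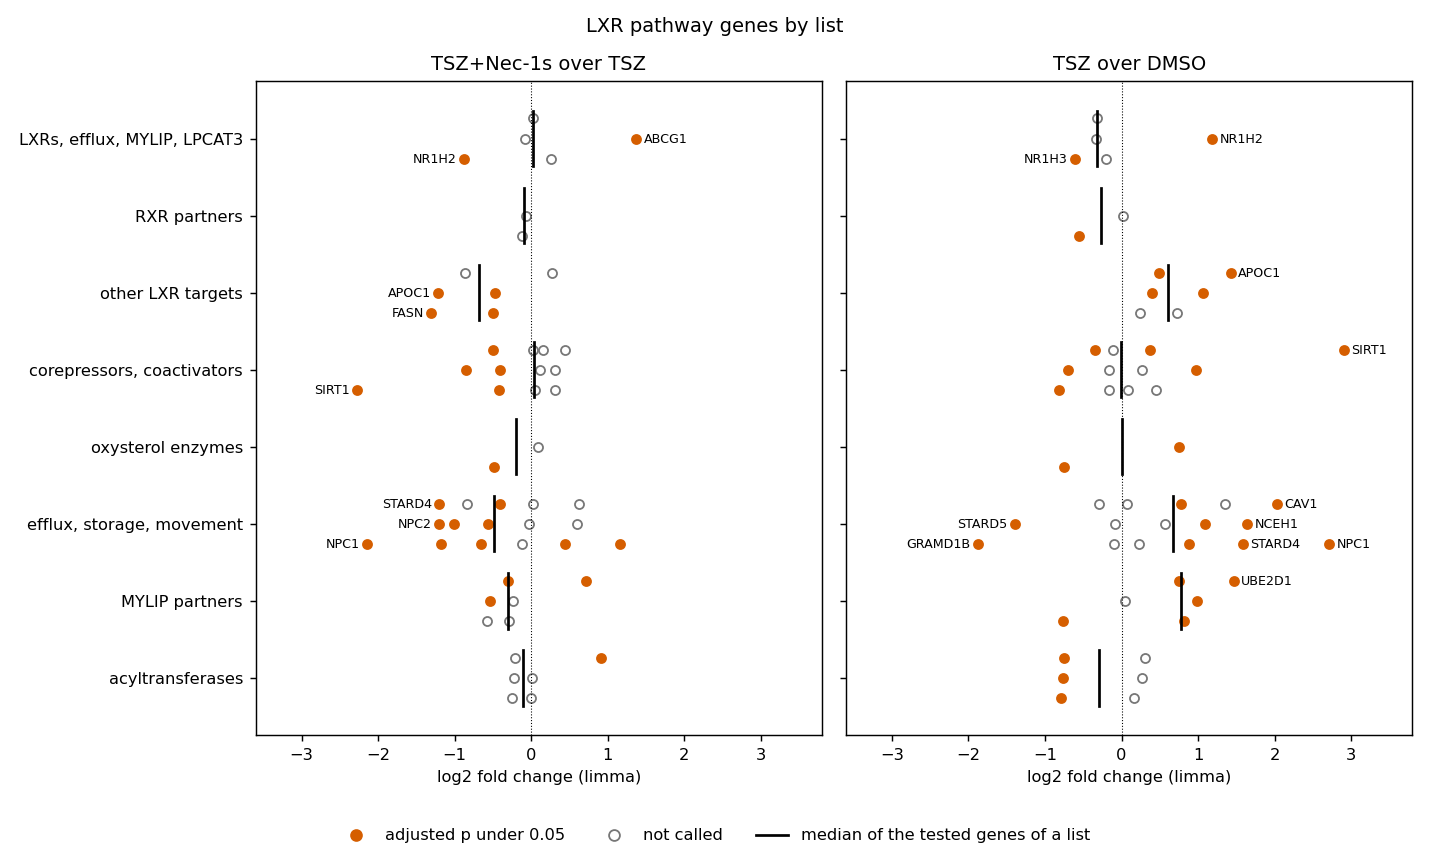
Log2 fold changes from limma (horizontal axes) of the tested genes of each list in TSZ+Nec-1s over TSZ and in TSZ over DMSO, with filled points for an adjusted p under 0.05, a bar for the median of a list and names for called genes of the first list and for other called genes that changed by over 1.2. APOC1, SOAT1 and STARD5 are drawn, and count in the median bars, although they passed the minimum only through 1 group. The bars of the other LXR targets thus lie at 0.60 in TSZ over DMSO and -0.68 in TSZ+Nec-1s over TSZ, against 0.48 and -0.49 without APOC1. In TSZ+Nec-1s over TSZ the efflux bar lies at -0.49, against -0.61 without SOAT1 and STARD5. NPC1 lies at 2.71 in TSZ over DMSO and -2.14 in TSZ+Nec-1s over TSZ.

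Among all genes tested, those whose log2 levels over the 12 libraries were most like a gene described here were listed by Pearson's r, as a description. The closest to NR1H2 were SLC3A2, PNPLA2 and FBRS, each with r = 0.99. SLC3A2 encodes an amino acid transporter chain and PNPLA2 a triglyceride lipase, and their means were 7702 and 3828 normalized reads in TSZ against 3823 and 1576 in DMSO cells. The closest to NR1H3 were C8orf33 (r = 0.97), ZMYND19 (0.96) and the folate carrier SLC19A1 (0.96), with SLC19A1 at 538 in TSZ and 786 in DMSO cells.
Those closest to ABCG1 were RAB7B (r = 0.93), BTN3A3 (0.91) and C7orf26 (0.90), and BTN3A3, a butyrophilin, had 45.3 in TSZ+Nec-1s and 16.4 in TSZ cells. MYLIP was most like SNX30 (0.89), STX2 (0.86) and SCRN1 (0.85), and LPCAT3 most like PLXNB1 (0.95), MED24 (0.94) and PRKACA (0.93). None of the 15 is a gene of the lists above.

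The calls of NR1H2 and NR1H3 in TSZ over DMSO and in TSZ over TNFα, of NR1H2 in TSZ+Nec-1s over TSZ and of ABCG1 in TSZ+Nec-1s over TSZ were kept under each of the 20 alternatives run. Over these, the log2 change of NR1H2 in TSZ over DMSO ranged from 0.77 to 1.30, and that of NR1H3 from -1.02 to -0.48. That of ABCG1 in TSZ+Nec-1s over TSZ ranged from 1.18 to 1.71.

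**Figure D5:**
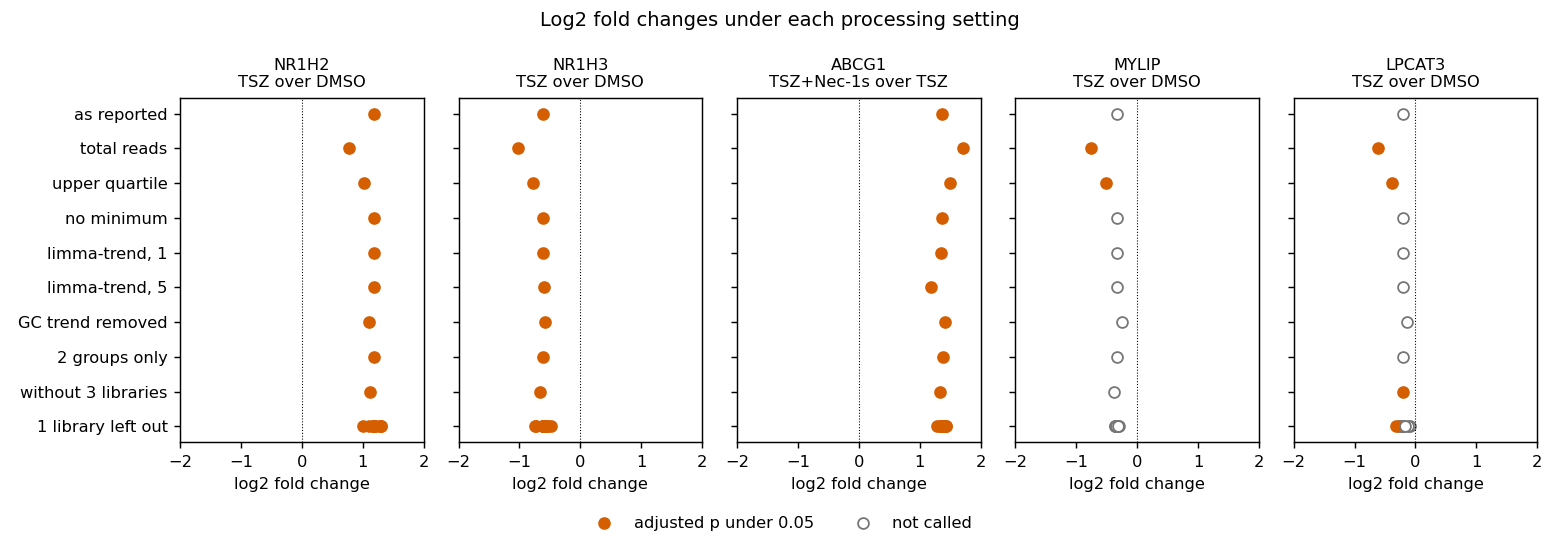
Log2 fold changes (horizontal axes) of NR1H2, NR1H3, MYLIP and LPCAT3 in TSZ over DMSO and of ABCG1 in TSZ+Nec-1s over TSZ under each processing setting (rows), with filled points where the adjusted p was under 0.05 and 12 points in the row where 1 library was left out. NR1H2 stays between 0.77 and 1.30, whereas MYLIP and LPCAT3 become called when libraries are scaled to total reads, at -0.75 and -0.61, or by the upper quartile, and LPCAT3 also without the 3 libraries.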

How the data were processed

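PolyA RNA of 12 HT-29 libraries, 3 per group, was analysed, with groups taken from the treatment labels. Per the labels and methods, the authors aligned reads with STAR (build hg38), counted them per gene with HTSeq in the intersection-strict mode without strand, and scaled them with DESeq. The 6 tables the authors deposited, 1 per pair of groups, hold as a signal the mean scaled count of each group. Their fold, log2 and p-value columns hold the authors' deposited comparisons and were not used. A group mean is a sum of 3 whole counts over size factors, so reads per library were recovered for 15733 of 15733, 15783 of 15798, 15662 of 15664 and 15848 of 15850 genes above 0 in TSZ+Nec-1s, TSZ, TNFα and DMSO. In a simulation of TSZ libraries the procedure returned the true reads of 15289 of 15328 genes and wrong reads for 2. Letters a to c order libraries by size factor and pair nothing.

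The test was limma 3.58.1 with voom weights in R 4.3.3, in 1 fit of 4 groups with the authors' size factors, limited to genes averaging 10 or more normalized reads, with Benjamini-Hochberg adjustment and calls at an adjusted p under 0.05. On simulated data for TSZ over DMSO it called 37.3%, 85.1% and 100% of genes changed 1.5-, 2- and 4-fold, and 11 of 11543 unchanged genes. The simulation gave every gene the same dispersion, no GC trend and few changed genes, so these rates may not hold for the real libraries. Fold changes are on the scale of voom log2 values. Alternatives were other scalings, no minimum, limma-trend with a pseudocount of 1 or 5, removal of each library's GC trend, 2 groups only and leaving out each library, and, chosen after seeing the data, leaving out the 3 libraries that followed GC content. Symbols were matched to GENCODE v44 (23161 directly, 1384 by an older symbol, 1940 not). Tables and figures were made with matplotlib 3.10.9, pandas 2.3.3, numpy 2.4.6 and scipy 1.17.1 under Python 3.11.15. Intervals are 95% intervals from limma's moderated t distribution.

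The genes and lists were chosen with earlier results of these data known. Named genes are the 6 described, up to 6 genes per list called in TSZ over DMSO or TSZ+Nec-1s over TSZ by the size of their change in TSZ over DMSO, and the 3 tested genes most correlated with each tested gene. The GEO labels name RNAiso Plus and an NEB kit, whereas the paper's methods name Trizol and a VAHTS kit. Some genes of the lists are not reported here.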

Additional observations from a re-analysis of the deposited data

How the results depend on the processing

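Each result was recomputed under 20 alternatives. Scaling to total reads moved the counts of genes higher and lower to 4938 and 1390 in TSZ+Nec-1s over TSZ, to 1486 and 4973 in TSZ over TNFα and to 1662 and 5688 in TSZ over DMSO, against 2323 and 2667, 2677 and 2535, and 3058 and 2838 as reported. It moved genes lower to 56 in TSZ+Nec-1s over TNFα, 1290 in TSZ+Nec-1s over DMSO and 225 in TNFα over DMSO, against 30, 674 and 127. It gave calls for NR1H3 (0.60) and LPCAT3 (0.36) and turned MYLIP (0.26) in TSZ+Nec-1s over TSZ, and gave calls for MYLIP in TSZ+Nec-1s over DMSO (-0.49), for ABCG1 (-0.96) and LPCAT3 (-0.51) in TSZ over TNFα, and for MYLIP (-0.75) and LPCAT3 (-0.61) in TSZ over DMSO. Upper quartile scaling turned MYLIP in TSZ+Nec-1s over TSZ (0.045) and called MYLIP (-0.51) and LPCAT3 (-0.38) in TSZ over DMSO.

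With the GC trend removed, genes higher and lower numbered 385 and 150 in TSZ+Nec-1s over TNFα, 1742 and 1408 in TSZ+Nec-1s over DMSO, and 906 and 573 in TNFα over DMSO, against 128 and 30, 839 and 674, and 367 and 127 as reported. NR1H3 was then called in TSZ+Nec-1s over TSZ (0.33), ABCG1 in TSZ+Nec-1s over TNFα (0.91), and NR1H2 (0.39) and MYLIP (-0.38) in TSZ+Nec-1s over DMSO, while NR1H2 in TSZ+Nec-1s over TNFα (0.17) and MYLIP in TSZ over TNFα (0.086) turned. With only the 2 groups compared in a fit, the counts were 1995 and 1153 in TSZ+Nec-1s over TNFα and 206 and 26 in TNFα over DMSO, with 372 lower in TSZ+Nec-1s over DMSO, and ABCG1 (0.77) and NR1H3 (-0.45) were called in TSZ+Nec-1s over TNFα. With no minimum, 11 genes were lower in TSZ+Nec-1s over TNFα, and with limma-trend and a pseudocount of 1, 18 were.

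Without DMSO library b, TNFα library c and TSZ library c, 3638 genes were higher in TSZ+Nec-1s over TSZ, and genes higher and lower numbered 2594 and 2245 in TSZ+Nec-1s over TNFα, 3158 and 2705 in TSZ+Nec-1s over DMSO, and 830 and 471 in TNFα over DMSO. Calls were added for NR1H3 in TSZ+Nec-1s over TNFα (-0.56), for NR1H3 (-0.47), MYLIP (-0.43) and LPCAT3 (-0.30) in TSZ+Nec-1s over DMSO, for ABCG1 in TSZ over TNFα (-0.87) and for LPCAT3 in TSZ over DMSO (-0.20), and LPCAT3 in TSZ+Nec-1s over TSZ (-0.091), MYLIP in TSZ+Nec-1s over TNFα (0.036) and MYLIP in TSZ over TNFα (0.087) turned. This alternative was chosen after seeing the data. The cause of these changes was not tested.

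Leaving out 1 library at a time, genes higher and lower ranged from 1757 to 2964 and 2147 to 3142 in TSZ+Nec-1s over TSZ, 47 to 668 and 2 to 274 in TSZ+Nec-1s over TNFα, 547 to 2226 and 307 to 1693 in TSZ+Nec-1s over DMSO, and 243 to 431 and 42 to 215 in TNFα over DMSO. The log2 change of ABCG1 ranged from 0.47 to 0.97 in TSZ+Nec-1s over TNFα, from 0.88 to 1.22 in TSZ+Nec-1s over DMSO and from -0.91 to -0.41 in TSZ over TNFα. That of NR1H2 ranged from -0.044 to 0.041 in TSZ+Nec-1s over TNFα and from 0.13 to 0.41 in TSZ+Nec-1s over DMSO and in TNFα over DMSO, and that of NR1H3 from -0.48 to -0.22 in TSZ+Nec-1s over DMSO, called without DMSO library b, and from -0.021 to 0.24 in TNFα over DMSO. MYLIP ranged from -0.20 to 0.012 in TSZ+Nec-1s over TSZ, -0.21 to 0.041 in TSZ+Nec-1s over TNFα and -0.091 to 0.12 in TSZ over TNFα. LPCAT3 ranged from -0.091 to 0.087 in TSZ+Nec-1s over TSZ, -0.32 to -0.089 in TSZ over DMSO, called without DMSO library b, and -0.16 to 0.048 in TNFα over DMSO. No paired analysis was possible because the recovered libraries carry no replicate numbers. ABCA1 rested on 1 to 23 reads per library.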
